A study of Mus musculus with 6 samples.

Results

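Most of the genes described here encode enzymes that oxidise, reduce or conjugate small reactive molecules. They were chosen by name from the gene symbols of the count table: aldehyde dehydrogenases (Aldh), alcohol dehydrogenases (Adh), aldo-keto reductases (Akr1), carbonyl reductases (Cbr), cytochrome P450 enzymes (Cyp), cytosolic and mitochondrial glutathione transferases (Gst) and the quinone reductases Nqo1 and Nqo2. The 5 retinoid genes Aldh1a1, Aldh1a2, Aldh1a3, Cyp26a1 and Cyp26b1 were left out. This gave 166 genes of the 23284 symbols in the table. They include the pseudogenes Adh6-ps1, Cyp2c53-ps, Cyp2d37-ps, Cyp4a29-ps, Cyp4a30b-ps and Cyp4f41-ps, which encode no enzyme and were not tested. The rule used symbols and no measured value, but earlier results of these data were known when it was set.

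The RNA that was sequenced came from E12.5 mouse embryos, from the epithelium of their esophagus. The 3 p63KO samples were homozygous for a Trp63-CreERT2 allele, and the 3 control samples came from littermates, which the sample titles call WT. Trp63 encodes p63, the transcription factor of stratified epithelia. The sources used here do not say whether embryos were pooled, so p-values cover only the spread among these libraries, which may be technical.

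As background, many of these enzymes act one after another on the same compounds. Cytochrome P450 enzymes insert oxygen into sterols, fatty acids, vitamins and foreign compounds, with electrons passed on by partner reductases. Aldehyde dehydrogenases oxidise aldehydes to acids, while aldo-keto and carbonyl reductases turn carbonyl groups into alcohols. Glutathione transferases join reactive products to glutathione. Several of these genes are classical targets of NRF2, the factor of the response to electrophiles, or of AhR, the receptor for aryl hydrocarbons, and many P450 genes are expressed mainly in liver, intestine or airway.

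The libraries held between 16948971 and 20093838 counts in control and between 13335328 and 16506401 in p63KO. Levels are given as CPM, library counts scaled to a common total and adjusted by TMM, in which 3 counts corresponded to between 0.153 and 0.223 CPM. Trp63 was 602.9 ± 63.9 CPM in control, with 71.4 ± 8.03 CPM in p63KO (± SD, n = 3 per group), and the libraries of the groups did not overlap. Epithelial content was described with 8 pan-epithelial markers, which do not tell the esophagus from other epithelia. Their summed level was between 3737 and 3996 CPM in control and between 4162 and 4304 CPM in p63KO. In the test given below, Krt8, Krt18, Krt19 and Cldn6 rose and Cdh1 fell. The sum therefore mixes markers that moved in both directions and does not measure epithelial content alone. The 10 basal and stratified markers summed to between 3660 and 4254 CPM in control and to between 935.9 and 999.2 CPM in p63KO. Of these 10, 7 fell (70%, against 14.3% of all genes), and Krt14, Krt4 and Sox2 did not pass. Most of the p63KO sum was Sox2, at 643.6 ± 92.8 CPM in control and 581.8 ± 29.9 CPM in p63KO, so the sum understates the fall of the other markers. Control replicate 3 stood apart from the other libraries in markers of liver and gut, which are given below beside the enzyme genes they moved with.

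A few of the enzyme genes changed strongly, and as a group their share of changed genes was close to that of all genes. Cbr2, a carbonyl reductase, was nearly absent in p63KO, and Cbr3 was reduced to a smaller degree. Of the aldehyde dehydrogenase genes, 6 were lower by moderate amounts, Aldh2 and Aldh6a1 among them, while the glutathione transferase gene Gsta3 and the alcohol dehydrogenase gene Adh1 were higher. Of the 166 genes, 65 had enough counts to be tested, and 20 of these (30.8%) changed in the edgeR quasi-likelihood test (adjusted p under 0.05 over all genes). Over all 13849 tested genes, 29.6% changed. The enzyme genes that fell numbered 13 (20%), against 14.3% of all genes, and 7 rose (10.8%), against 15.3% of all genes. Of the changes of at least 2-fold, 3 of the 65 enzyme genes rose and 4 fell, where 6.7% of all genes rose and 4.94% fell. With the replicate number as a block, 7 rose and 17 fell, against 34.5% of all genes changed in either direction. The median log2 fold change was -0.08 for the 65 enzyme genes and -0.01 for all tested genes. The libraries of the groups did not overlap for 30 enzyme genes (46.2%), against 44.1% of all genes.

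**Figure D1:**
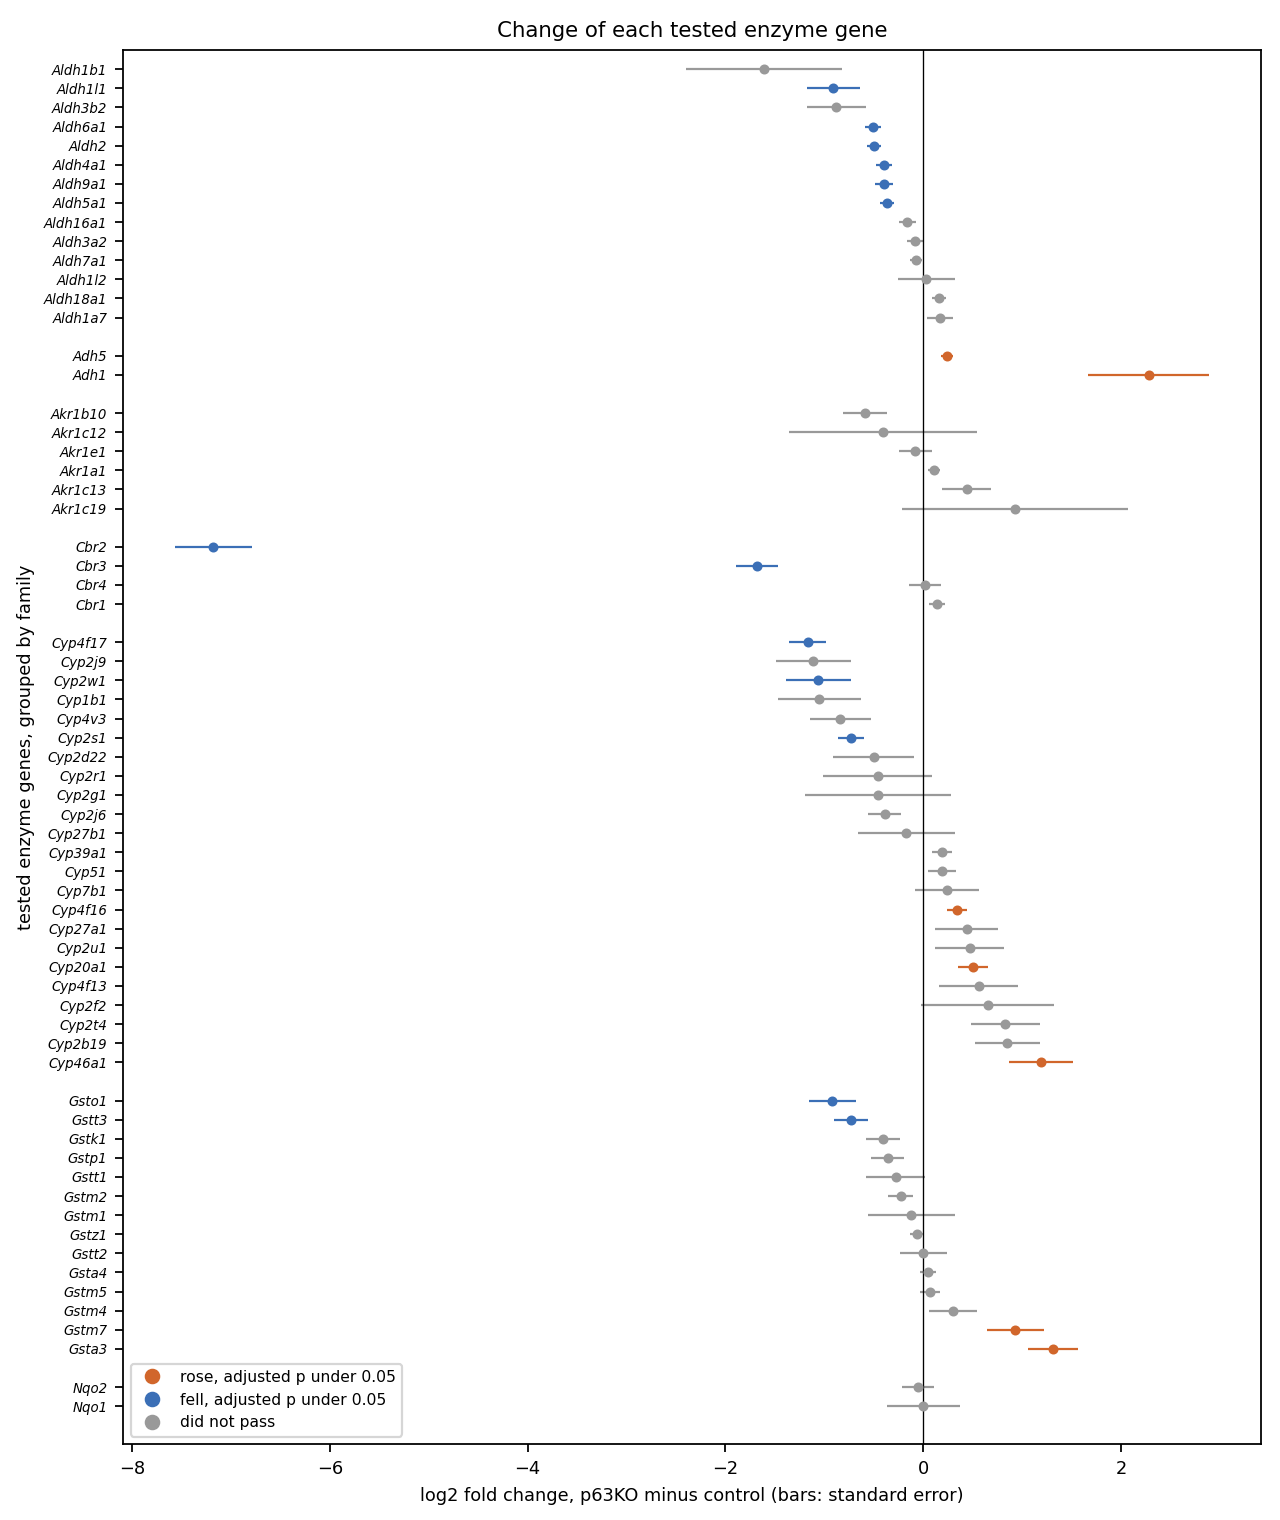
The log2 fold change of p63KO minus control is plotted for each of the 65 tested enzyme genes with its standard error, by family, in colour where the gene passed the test. Cbr2 lies far to the left at -7.18, and Adh1 is the gene farthest to the right at 2.28.

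The promoters of 4 genes are printed first, because they belong to both carbonyl reductase genes that fell, to their relative Cbr1, which did not pass, and to Gsta3, the only enzyme gene that rose at least 2-fold to a mean of at least 5 CPM. Each is the 250 bases before the annotated start, from RefSeq on GRCm38.p6, read 5′ to 3′ on the strand of the gene. The searched motifs were the NRF2 element TGACNNNGC and the AhR core GCGTG, both on both strands, and the p53-family half-site consensus, which is its own reverse complement. Capitals mark the matches. Cbr2 is at chr11:120732022-120732271 on the minus strand, Cbr3 at chr16:93682969-93683218 on the plus strand, Cbr1 at chr16:93607587-93607836 on the plus strand and Gsta3 at chr1:21240335-21240584 on the plus strand.
Cbr2: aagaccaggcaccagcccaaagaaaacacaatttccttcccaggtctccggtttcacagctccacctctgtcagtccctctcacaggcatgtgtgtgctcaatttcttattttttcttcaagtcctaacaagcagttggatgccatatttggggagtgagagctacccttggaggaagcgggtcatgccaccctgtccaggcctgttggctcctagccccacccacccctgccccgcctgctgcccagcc
Cbr3: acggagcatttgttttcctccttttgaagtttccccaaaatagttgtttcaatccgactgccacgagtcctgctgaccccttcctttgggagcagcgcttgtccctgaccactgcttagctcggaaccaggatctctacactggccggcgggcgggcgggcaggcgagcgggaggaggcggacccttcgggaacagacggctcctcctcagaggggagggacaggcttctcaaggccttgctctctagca
Cbr1: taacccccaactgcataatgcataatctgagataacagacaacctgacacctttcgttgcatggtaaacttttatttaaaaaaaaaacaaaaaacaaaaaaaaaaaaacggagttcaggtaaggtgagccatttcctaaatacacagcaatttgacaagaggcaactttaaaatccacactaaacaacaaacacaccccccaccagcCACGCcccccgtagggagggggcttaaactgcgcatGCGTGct
Gsta3: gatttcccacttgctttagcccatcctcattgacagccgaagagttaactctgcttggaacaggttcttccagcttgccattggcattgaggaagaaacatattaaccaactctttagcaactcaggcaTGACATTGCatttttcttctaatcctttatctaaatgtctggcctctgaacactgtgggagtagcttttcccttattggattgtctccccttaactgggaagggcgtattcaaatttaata

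The windows of Cbr2 and Cbr3 held none of the 3 motifs, that of Cbr1 held 2 matches to the AhR core, at 43 and 7 bases before the start, and that of Gsta3 held 1 NRF2 element, at 121 bases. Promoters were matched for 53 of the 65 tested enzyme genes, with 61 windows in all. The NRF2 element was in 6.56% of them and in 10.2% of the 32851 windows of the RefSeq table. The AhR core was in 31.1% against 28.2%, and the p53-family half-site in 4.92% against 7.13%. Of the genes that rose, Gsta3 and Gstm7 had the NRF2 element, and of those that fell, Aldh9a1 had it. Gstm5, which did not pass, had it too. The p53-family half-site was in 2 windows of Gstt3, which fell, and in a window of Cyp2f2, which did not pass. These matches describe letters only.

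Among the carbonyl reductases, enzymes that reduce ketones and quinones, 2 of 4 genes fell and 2 did not pass. Over all genes 14.3% fell, and a share of 4 genes says little about a family. Cbr2, a mitochondrial tetrameric carbonyl reductase best known from lung, was 28.9, 21.8 and 30.1 CPM in control, against 0.18, 0.35 and 0.0 CPM in p63KO. All 3 p63KO libraries were near 0 and far below the lowest control library. All p63KO libraries together held 8 counts against 1477 in control, a depth-scaled ratio of 150.0 (exact 95% interval 76.0 to 348.0, counting error only). The log2 fold change was -7.18 (SE 0.39, edgeR adjusted p = 2e-06) and lay between -7.97 and -6.68 with any 1 library left out. Cbr3, a cytosolic reductase, was 12.51, 11.85 and 11.36 CPM in control, against 3.07, 3.12 and 4.97 CPM in p63KO. It was lower in each p63KO library than in every control library (log2 fold change of -1.68, SE 0.21, edgeR adjusted p = 0.00033), with 31.1% of the control level left. Cbr1, the neighbour of Cbr3 on the chromosome and the broad-range cytosolic reductase, was 45.0, 46.9 and 50.3 CPM in control, against 55.4, 48.3 and 53.1 CPM in p63KO. Its libraries overlapped, and it did not pass (log2 fold change of 0.14, SE 0.08, edgeR adjusted p = 0.22). Cbr4, a mitochondrial reductase that also serves fatty acid synthesis, was between 11.4 and 17.3 CPM in all 6 libraries (log2 fold change of 0.02, SE 0.16). The difference between Cbr3 and Cbr1 was not itself tested.

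Summed per kilobase of exon, which allows levels of different genes to be added, the 4 carbonyl reductases were between 46.1 and 53.8 CPM per kb in control and between 23.9 and 27.1 in p63KO. In control, Cbr2 with 20.3 CPM per kb stood beside Cbr1 with 18.6. In p63KO, Cbr2 was at 0.131 CPM per kb and Cbr1 at 20.5. The alcohol dehydrogenases summed to between 23.2 and 25.9 CPM per kb in control and between 28.2 and 31.7 in p63KO, and the omega class of glutathione transferases to between 17.5 and 37.7 and between 12.96 and 15.76. The aldehyde dehydrogenases summed to between 210.6 and 240.9 CPM per kb in control and between 198.5 and 221.8 in p63KO.

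**Figure D2:**
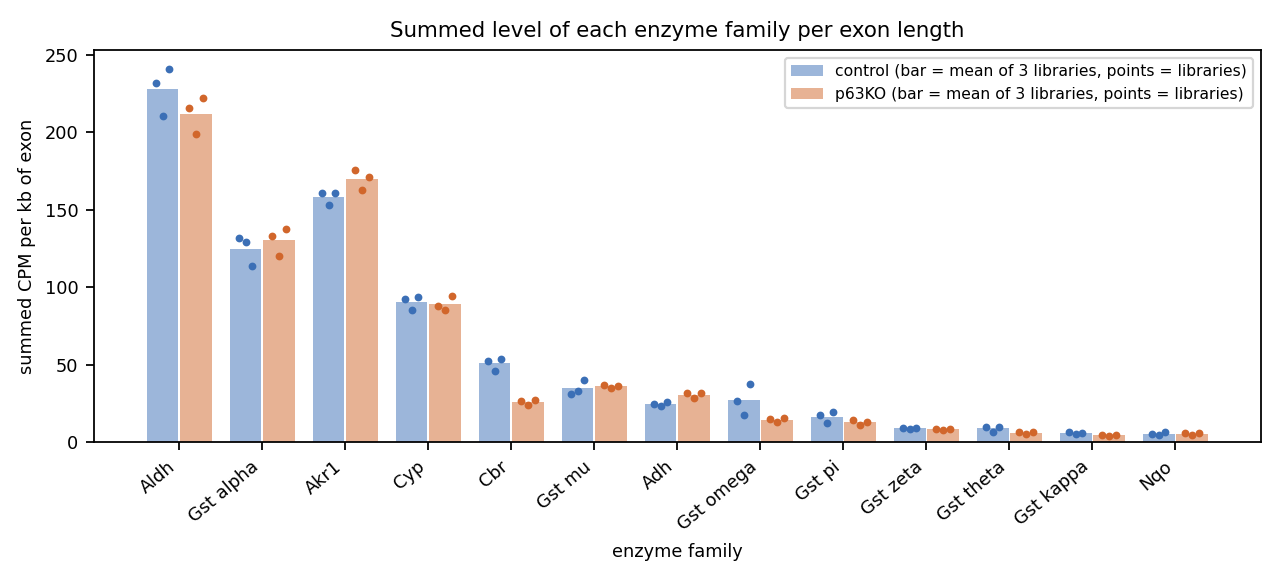
The summed level of each enzyme family in CPM per kilobase of exon is drawn as a bar for the mean of 3 libraries in each group, with points for the libraries. The carbonyl reductase bar is lower in p63KO, with control libraries between 46.1 and 53.8 and p63KO libraries between 23.9 and 27.1.

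Of the 14 tested aldehyde dehydrogenases, 6 fell (42.9%, against 14.3% of all genes), none rose and 8 did not pass. The median log2 fold change was -0.38. The genes that fell were Aldh2, Aldh4a1, Aldh5a1, Aldh6a1, Aldh9a1 and Aldh1l1. The first 4 encode mitochondrial enzymes: Aldh2 oxidises acetaldehyde, Aldh4a1 acts in proline breakdown, Aldh5a1 in the breakdown of GABA and Aldh6a1 in that of valine. The mitochondrial Aldh1l2 (log2 fold change of 0.03), Aldh18a1 and Aldh1b1 did not pass. Aldh9a1 oxidises aminoaldehydes in the cytosol, and Aldh1l1 oxidises formyl-tetrahydrofolate there.

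Aldh2 was 143.5, 141.7 and 129.6 CPM in control, against 103.1, 97.3 and 92.0 CPM in p63KO. All p63KO libraries were below all control libraries, with 70.5% of the control level left (log2 fold change of -0.50, SE 0.07, edgeR adjusted p = 0.00054). Aldh6a1 was 48.3, 45.2 and 46.9 CPM in control, against 32.6, 31.4 and 34.6 CPM in p63KO, also without overlap (-0.51, SE 0.08). Aldh5a1 lay between 106.3 and 120.6 CPM in control and between 85.2 and 89.6 CPM in p63KO. Aldh4a1 lay between 39.1 and 45.7 CPM in control and between 31.0 and 32.4 CPM in p63KO, and 42.6% of its 100-base windows also occur in the annotated gene Gm21969. Aldh9a1 lay between 47.3 and 56.1 CPM in control and between 36.9 and 39.8 CPM in p63KO. Their log2 fold changes were -0.37, -0.40 and -0.40, and these 5 calls were kept with any 1 library left out. Aldh1l1 was lower, from 5.86 ± 1.19 to 3.10 ± 0.96 CPM (± SD, n = 3 per group; log2 fold change of -0.91, SE 0.27, edgeR adjusted p = 0.033). That call was lost without control replicate 1 or 3 (adjusted p = 0.095 and 0.076) or p63KO replicate 2 or 3 (adjusted p = 0.11 each).

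The aldehyde dehydrogenase with the highest level in CPM, Aldh1a7, a close relative of Aldh1a1, was not among those that passed. It was 175.4, 131.5 and 162.6 CPM in control, against 177.9, 148.3 and 200.6 CPM in p63KO, with overlapping libraries (log2 fold change of 0.17, SE 0.13). Only 0.0508% of its 100-base windows are shared with Aldh1a1. Also past 10 CPM without passing were Aldh3a2, which oxidises fatty aldehydes, Aldh7a1, of lysine breakdown, Aldh16a1, and Aldh18a1, of proline synthesis. Their log2 fold changes were -0.08, -0.07, -0.16 and 0.16. Aldh3b2 had a log2 fold change of -0.88 (SE 0.30, edgeR adjusted p = 0.055). It passed as lower with DESeq2 (adjusted p = 0.0157), with the replicate number as a block (0.00622), without the low-count filter (0.0499) and without control replicate 2 (-1.15, adjusted p = 0.00547).

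Both tested alcohol dehydrogenases rose, where 15.3% of all genes rose, but 2 genes are too few to describe the family. Adh5, the glutathione-dependent formaldehyde dehydrogenase found in most tissues, was 127.2, 124.3 and 138.3 CPM in control, against 157.5, 148.1 and 154.9 CPM in p63KO (log2 fold change of 0.24, SE 0.06, edgeR adjusted p = 0.019). The libraries did not overlap, but the rise was only 1.18-fold. Its call was lost without control replicate 1 or 2 (adjusted p = 0.062 and 0.071) or p63KO replicate 1 or 3 (0.053 and 0.061). Adh1, the classical ethanol and retinol dehydrogenase, was 1.56, 0.26 and 0.82 CPM in control, against 4.84, 1.73 and 6.24 CPM in p63KO (log2 fold change of 2.28, SE 0.61, edgeR adjusted p = 0.020). Replicate 2 was the lowest library of each group. The Adh1 log2 fold change was 2.99 with control replicate 1 left out and 1.82 with control replicate 2 left out, the highest and lowest values over the libraries. The Adh1 call was lost without p63KO replicate 1 or 3 (adjusted p = 0.069 and 0.084). Adh7, the alcohol dehydrogenase of upper gut epithelium, was not tested and had 4 counts in control and 20 in p63KO, of which 1 was in p63KO replicate 2 (depth-scaled ratio 6.15, exact 95% interval 2.06 to 24.8). The genes Adh7, Adh1, Adh6a, Adh4 and Adh5 are neighbours in 1 chromosomal cluster, and the 2 tested members both rose.

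Among 23 tested P450 genes, 3 rose (13%), 3 fell (13%) and 17 missed the threshold, where 15.3% of all genes rose and 14.3% fell. They had a median log2 fold change of 0.19. The 3 that fell were Cyp4f17, Cyp2w1 and Cyp2s1, and the 3 that rose were Cyp4f16, Cyp20a1 and Cyp46a1. Cyp4f17, of a family of fatty acid hydroxylases, was 12.8, 12.3 and 9.83 CPM in control, against 5.67, 5.68 and 4.08 CPM in p63KO. Each p63KO library was below each control library (log2 fold change of -1.17, SE 0.19, edgeR adjusted p = 0.0015). Its neighbour Cyp4f16 went the other way, with 14.8, 16.0 and 15.2 CPM in control, against 19.4, 19.7 and 19.3 CPM in p63KO. This rise of 0.34 (SE 0.10, edgeR adjusted p = 0.033) passed with all libraries but with none of the 6 left out in turn, where the adjusted p lay between 0.053 and 0.10, nor with DESeq2 (0.058) or without the low-count filter (0.059). Of the windows of Cyp4f17, 0.0704% were shared with Cyp4f16, while 9.8% of those of Cyp4f16 occur in another gene, mostly Cyp4f37.

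Cyp2s1, an epithelial P450 reported as inducible through AhR, was 38.3, 32.2 and 45.7 CPM in control, against 24.4, 24.4 and 21.3 CPM in p63KO. The groups did not overlap (log2 fold change of -0.73, SE 0.13, edgeR adjusted p = 0.0029). Cyp2w1, a P450 known from the developing gut and from tumours, was 28.5, 10.7 and 14.2 CPM in control, against 8.62, 6.86 and 10.1 CPM in p63KO. Control replicate 1 was the highest, and the lowest control library lay just above the highest p63KO library (log2 fold change of -1.06, SE 0.33, edgeR adjusted p = 0.041). With control replicate 1 left out, Cyp2w1 had a log2 fold change of -0.55 (adjusted p = 0.11), and its call was also lost without p63KO replicate 1, 2 or 3 (0.11, 0.13 and 0.072), with robust dispersions (0.088) and with limma-voom (0.096). Cyp20a1, whose substrates are not established, rose from 12.8 ± 2.47 to 18.2 ± 0.94 CPM (± SD, n = 3 per group; log2 fold change of 0.50, SE 0.15, edgeR adjusted p = 0.032). Cyp46a1, the cholesterol 24-hydroxylase of neurons, rose from 0.87 ± 0.08 to 1.98 ± 0.49 CPM (log2 fold change of 1.19, SE 0.32, edgeR adjusted p = 0.022). The Cyp20a1 call was lost without control replicate 1 or 2 (adjusted p = 0.11 and 0.096) or p63KO replicate 1, 2 or 3 (0.067, 0.064 and 0.11). The Cyp46a1 call was lost without control replicate 1, 2 or 3 (adjusted p = 0.052, 0.068 and 0.057), p63KO replicate 1 or 2 (0.079 and 0.070) and with DESeq2 (0.058).

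The most abundant P450 gene in CPM was Cyp51, the lanosterol demethylase of cholesterol synthesis. It was 94.8, 148.5 and 127.7 CPM in control, against 135.9, 139.4 and 147.6 CPM in p63KO, with overlapping libraries (log2 fold change of 0.19, SE 0.14, edgeR adjusted p = 0.35). Cyp39a1, an oxysterol hydroxylase, was the other P450 gene over 10 CPM that did not pass (0.19, SE 0.10). The remaining 15 tested P450 genes that did not pass lay below that level, Cyp1b1 and Cyp2j9 among them. Cyp1b1, an AhR target, had a log2 fold change of -1.05 (SE 0.42, edgeR adjusted p = 0.093), which passed without control replicate 2 (-1.33, adjusted p = 0.0338), and Cyp2j9 one of -1.11 (SE 0.38, adjusted p = 0.058). Cyp4v3 passed as lower with the block (-0.88, adjusted p = 0.0489), and Cyp2b19 as higher without control replicate 1 (1.17, adjusted p = 0.042).

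Most P450 genes, the Cyp pseudogenes included, were too low to test at this depth. Of the 100 P450 genes, 77 were not tested, and 46 of these had no count in any library, Cyp1a2, Cyp2e1, Cyp3a11 and Cyp7a1 among them. By counting error alone, a 0 allows a level of up to between 0.153 and 0.223 CPM in a single library. For a gene at 0 in all 6 libraries, the limit on the mean level is lower. A 0 here need not mean a low level, since Hmgcs1, a sterol synthesis gene that most cells use, is listed at 0 in all 6 libraries too. Cyp26c1, a retinoic acid hydroxylase, had 37 counts in control and 5 in p63KO (depth-scaled ratio 6.01, exact 95% interval 2.36 to 19.6) and did not pass the low-count filter. Without the filter it was tested and passed as lower (log2 fold change of -2.52, adjusted p = 0.0184), as it did with p63KO replicate 1 left out (-3.09, adjusted p = 0.0277). Among all 166 enzyme genes, 101 were not tested, of which 50 had no count. One of these was Akr1b3, the aldose reductase gene, of whose 100-base windows 74.0% also occur in other annotated genes, so its 0 does not show that it was not expressed.

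Among 14 tested glutathione transferases, 2 rose and 2 fell (14.3% each) and 10 missed the threshold, shares close to those of all genes. They had a median log2 fold change of -0.09. Gsta3, an alpha-class transferase that also isomerises steroids, was 3.81, 2.55 and 3.53 CPM in control, against 9.74, 6.03 and 8.76 CPM in p63KO. Every p63KO library was above every control library, a 2.48-fold rise (log2 fold change of 1.31, SE 0.25, edgeR adjusted p = 0.0036) that was kept with any 1 library left out. Gsta4, the alpha-class enzyme that conjugates hydroxynonenal, was 165.6, 162.6 and 142.9 CPM in control, against 165.8, 150.0 and 171.9 CPM in p63KO. Its libraries overlapped (log2 fold change of 0.05, SE 0.08). Per kilobase of exon it was the second most abundant enzyme gene, with 124.0 CPM per kb in control, after Akr1a1 with 144.0.

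Gsto1, the omega-class enzyme that reduces dehydroascorbate, was 53.8, 35.0 and 76.0 CPM in control, against 29.5, 25.6 and 31.6 CPM in p63KO. Control replicate 3 was the highest, and no p63KO library reached the lowest control library (log2 fold change of -0.92, SE 0.24, edgeR adjusted p = 0.016). With control replicate 3 left out, Gsto1 had a log2 fold change of -0.62 (adjusted p = 0.021). Its call was lost without p63KO replicate 1 or 2 (adjusted p = 0.057 and 0.065) and with robust dispersions (0.076). Gstt3, a theta-class transferase, was 27.7, 18.4 and 27.3 CPM in control, against 15.82, 13.02 and 15.37 CPM in p63KO (log2 fold change of -0.73, SE 0.17, edgeR adjusted p = 0.010). Its groups did not overlap, and 23.9% of its windows are shared with the annotated gene Gm20441. The neighbouring Gstt1 and Gstt2 did not pass (-0.28 and 0.00).

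In the mu-class cluster of 7 neighbouring genes, Gstm7 rose from 2.02 ± 0.55 to 3.86 ± 0.78 CPM (± SD, n = 3 per group; log2 fold change of 0.93, SE 0.29, edgeR adjusted p = 0.040), and Gstm1, Gstm2, Gstm4 and Gstm5 did not pass. The Gstm7 call was lost without control replicate 1 or 2 (adjusted p = 0.12 and 0.062) or p63KO replicate 1 or 3 (0.11 and 0.13). Gstm5, the mu-class gene with the most CPM, was 26.1, 28.2 and 32.7 CPM in control, against 30.2, 30.1 and 31.2 CPM in p63KO. Those ranges overlap (log2 fold change of 0.07, SE 0.10).

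Gstp1, the pi-class enzyme, was 27.0, 19.3 and 30.0 CPM in control, against 22.0, 17.0 and 20.2 CPM in p63KO. Its libraries overlapped (log2 fold change of -0.36, SE 0.17, edgeR adjusted p = 0.15), while without control replicate 2 it was lower by the test (-0.53, adjusted p = 0.021), and likewise with the replicate number as a block (-0.35, adjusted p = 0.041). Its near copy Gstp2 had 3 counts in all, and 52.8% of the windows of Gstp1 occur in another gene. Gstz1, of tyrosine breakdown, was 45.7, 44.0 and 44.4 CPM in control, against 43.9, 40.9 and 43.8 CPM in p63KO (-0.06, SE 0.07). Gstk1, the kappa-class enzyme of mitochondria and peroxisomes, was 9.56, 7.41 and 8.30 CPM in control, against 6.26, 5.89 and 6.83 CPM in p63KO. The groups of Gstk1 did not overlap, yet it did not pass (-0.41, SE 0.17, edgeR adjusted p = 0.11).

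None of the 6 tested aldo-keto reductases and neither quinone reductase passed with all libraries in the edgeR test. Akr1b10, of the aldose reductase branch, was 11.2, 7.56 and 8.83 CPM in control, against 7.38, 4.85 and 6.09 CPM in p63KO (-0.59, SE 0.22, edgeR adjusted p = 0.074). It passed as lower with the replicate block (-0.59, adjusted p = 0.019) and without control replicate 2 (-0.71, adjusted p = 0.0495). The Akr1c genes, which changed with 1 library, are given below. Akr1a1, the aldehyde reductase that makes precursors of ascorbate in mice, had the highest level of all 166 genes. It was 407.8, 391.7 and 389.3 CPM in control, against 444.4, 408.3 and 431.2 CPM in p63KO, so that the highest control library lay just below the lowest p63KO library (log2 fold change of 0.11, SE 0.06, edgeR adjusted p = 0.20). Akr1e1 was at -0.08 (SE 0.17). Nqo2 was 15.9, 15.8 and 22.7 CPM in control, against 17.2, 16.8 and 18.6 CPM in p63KO (-0.05, SE 0.16). Nqo1, a standard NRF2 target, was low, at 1.43 ± 0.35 CPM in control, against 1.42 ± 0.56 CPM in p63KO (± SD, n = 3 per group; log2 fold change of 0.00, SE 0.37).

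**Figure D3:**
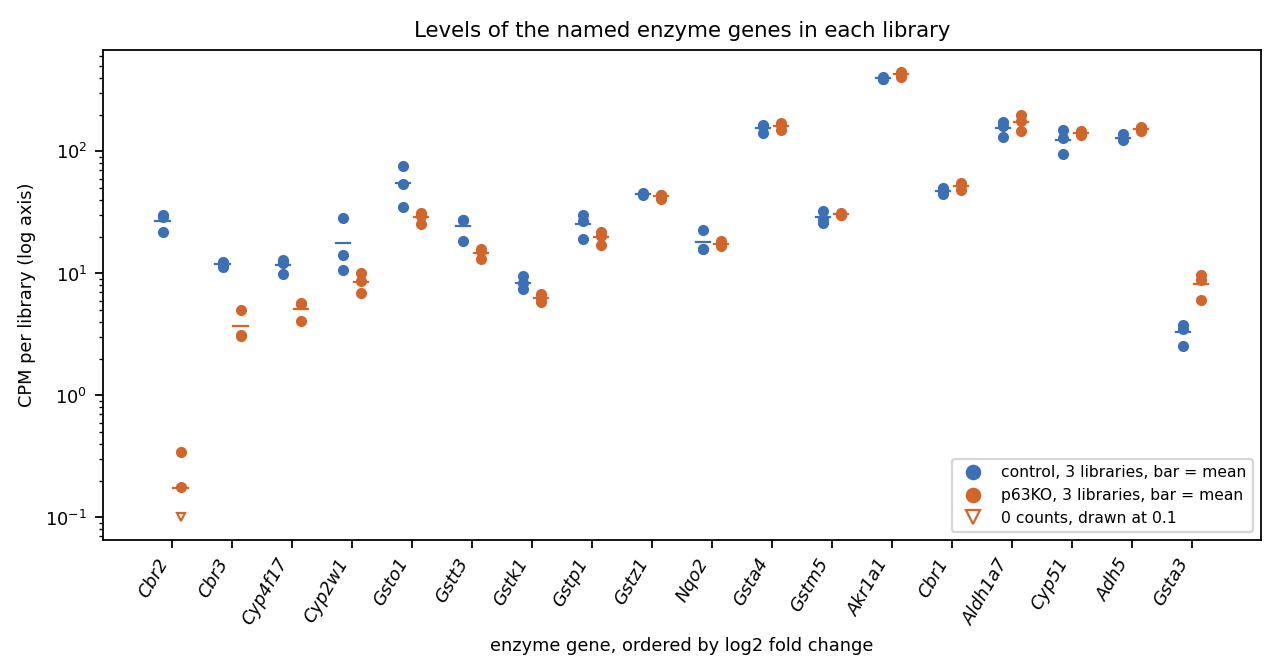
The CPM of the 18 enzyme genes chosen by size of change or abundance is plotted on a log axis for each library, with a bar at the mean of each group. Cbr2, Cbr3, Cyp4f17 and Gsta3 show groups set well apart, while Akr1a1, Gsta4 and Gstz1 nearly coincide.

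Several enzyme genes were high in control replicate 3 alone among the controls. Aldh1b1, a mitochondrial aldehyde dehydrogenase, was 3.01, 1.84 and 21.9 CPM in control, against 3.19, 2.70 and 2.75 CPM in p63KO. Its log2 fold change of -1.61 (SE 0.79, edgeR adjusted p = 0.17) became 0.25 without that library (adjusted p = 0.62). Without control replicate 2, in contrast, the Aldh1b1 value was -2.10 and passed (adjusted p = 0.040). Cyp3a13, a P450 of the drug-metabolising CYP3A family known from liver and intestine, had 1, 2 and 60 counts in the control libraries and 1, 0 and 0 in p63KO, and passed as lower without the low-count filter (adjusted p = 0.0457). Cyp2c68 had 13 counts in control replicate 3 and none elsewhere. When a library had to exceed 4 times the next highest value by 0.5 CPM, a rule chosen after the values were seen, these were the 3 enzyme genes set apart in that library, and no other library had one.

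The markers of other organs moved with that library. The 12 hepatocyte markers summed to 238.9 CPM in control replicate 3 and to between 1.02 and 3.66 CPM elsewhere, with Alb and Fgb at 0 in all libraries. Apoa1, an apolipoprotein gene, had 413 counts there and at most 8 elsewhere, and Afp 282 and at most 5. The 14 markers of stomach, intestine and pancreas summed to 206.3 CPM there and to between 1.07 and 9.97 CPM elsewhere, with Ptf1a, Tff1 and Gkn1 at 0 in all libraries. Hnf4a, a transcription factor of liver and intestine that is on both lists, had 826 counts there and at most 19 elsewhere. The part of other tissue in the levels of the enzyme genes in control replicate 3 was not tested.

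**Figure D4:**
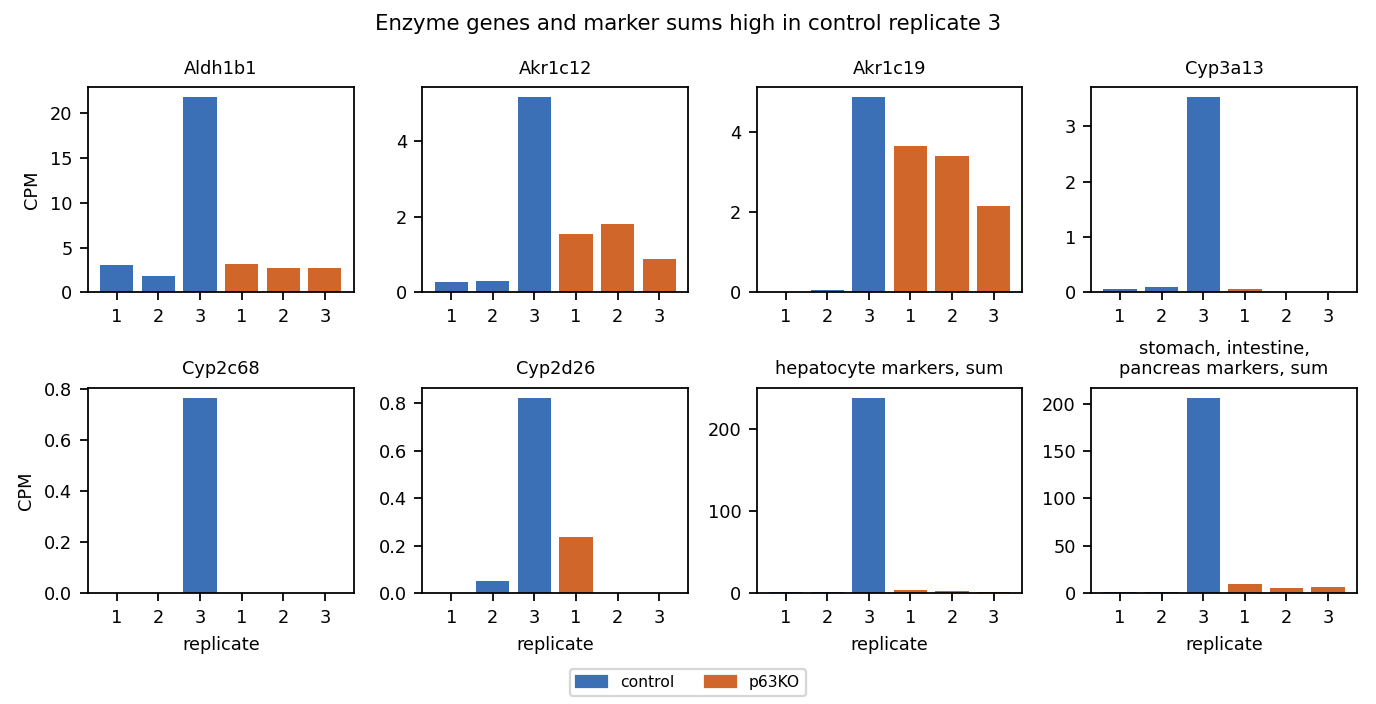
CPM in each library are drawn as bars for 6 enzyme genes and for the summed markers of 2 other tissues, each panel with its own axis from 0. Control replicate 3 is the highest bar in every panel, with 21.9 CPM of Aldh1b1 and 238.9 CPM of hepatocyte markers.

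The Akr1c cluster depended on the same library. Akr1c19 was 0.0, 0.05 and 4.89 CPM in control, against 3.66, 3.39 and 2.15 CPM in p63KO, and did not pass (log2 fold change of 0.93, SE 1.14, edgeR adjusted p = 0.60). With all libraries it passed as higher in limma-voom (3.92, adjusted p = 0.040), and it was at 2.16 with the replicate block (adjusted p = 0.25). Without control replicate 3, the controls held 1 count of Akr1c19 and p63KO 140, a depth-scaled ratio of 119.0 (exact 95% interval 21.1 to 4740, counting error only). In the edgeR fit without that library, Akr1c19 passed as higher (log2 fold change of 6.52, adjusted p = 9.7e-05). Akr1c12 was 0.27, 0.31 and 5.18 CPM in control, against 1.534, 1.801 and 0.8911 CPM in p63KO. Its log2 fold change of -0.41 became 2.27 without that library (adjusted p = 0.011), and Akr1c13 went from 0.44 to 0.75 (adjusted p = 0.027). Akr1c12 and Akr1c13, which encode hydroxysteroid dehydrogenases, share 11.5% of their windows, so their reads cannot be fully told apart. Without control replicate 3, 8 enzyme genes rose and 12 fell, where 26.9% of all genes changed. Cbr2, Cbr3, Cyp4f17, Gsta3 and Aldh2 were called in the same direction without it.

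Markers of some other cell types also differed between the groups. The 10 neuroendocrine markers summed to between 3.12 and 7.89 CPM in control and to between 469.0 and 590.4 CPM in p63KO, and all 10 rose. Of 12 mesenchyme markers, 2 rose (Dcn and Twist1) and 5 fell (Col1a1, Col3a1, Pdgfra, Pdgfrb and Foxf1a). Their median log2 fold change was -0.99. Their sum was between 454.9 and 539.9 CPM in control and between 1261 and 1656 CPM in p63KO, and it was higher there through Dcn. In p63KO, Dcn, which encodes the matrix proteoglycan decorin, was 1222 ± 151.3 CPM, against 159.0 ± 49.1 CPM in control (± SD, n = 3 per group). Of 11 markers of airway and lung, 2 were tested and did not pass; Scgb1a1, Sftpa1, Sftpd and Bpifa1 were at 0 in all libraries, and the sum was between 74.6 and 187.2 CPM in control and between 83.0 and 114.9 CPM in p63KO, nearly all of it Etv5 and Id2. None of 4 tested blood and 5 tested endothelial markers passed, and the sums were between 4.03 and 42.5 CPM and between 4.51 and 8.07 CPM in control, and between 13.6 and 27.4 CPM and between 3.95 and 8.39 CPM in p63KO. In bulk RNA, fewer cells that express a gene and less RNA of it per cell cannot be told apart. The part of cell composition in the enzyme changes was not tested.

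The genes that work beside these enzymes were described from 5 lists, drawn up with earlier results of these data known. Over all genes, 15.3% rose and 14.3% fell, and the shares below describe only the genes listed. Of 25 genes of the NRF2 pathway and of NADPH supply, 7 rose (28%), 4 fell (16%) and 14 did not pass (median log2 fold change of 0.09). Slc7a11, the cystine importer, rose from 15.02 ± 1.04 to 35.5 ± 6.51 CPM (1.24, SE 0.14, edgeR adjusted p = 0.00018), and Gsr, Srxn1, G6pdx, Pgd, Tkt and Sqstm1 rose too. Gclm, the modifier subunit of glutathione synthesis, fell from 45.2 ± 1.02 to 25.3 ± 0.82 CPM (-0.84, SE 0.08), and Fth1, the ferritin heavy chain, from 337.6 ± 19.3 to 229.9 ± 10.7 CPM (-0.55, SE 0.07). Gss and Abcc1 also fell. Nfe2l2, the NRF2 gene itself, did not pass (0.13, SE 0.10). Genes of this list therefore moved in both directions.

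Of 18 genes for electron partners of P450 and for heme supply, 1 rose (5.56%), 5 fell (27.8%) and 12 did not pass (median -0.05). Cyb5, listed also as Cyb5a, the cytochrome b5 that hands electrons to P450, fell from 124.0 ± 4.46 to 98.6 ± 3.10 CPM (-0.33, SE 0.06). Cyb5r1 and Fdxr fell by 0.28 and 0.38 on the log2 scale, and Por, the main P450 reductase, did not pass (0.07, SE 0.08). Of 11 tested xenobiotic receptors and AhR partners, 2 rose (18.2%), 3 fell (27.3%) and 6 did not pass (median -0.12). Rxra, the retinoid X receptor alpha, fell from 222.8 ± 15.2 to 115.7 ± 7.43 CPM (-0.95, SE 0.07). The lipid-sensing receptor genes Ppara and Ppard fell by 1.35 and 0.70 on the log2 scale, while Ahr (0.64, SE 0.15) and Tiparp rose.

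Of 31 tested genes of other phase I and phase II and glutathione enzymes, 6 rose (19.4%), 10 fell (32.3%) and 15 did not pass (median 0.02). Ugt1a6a, a glucuronosyltransferase gene, was 8.002, 9.45 and 10.25 CPM in control, against 0.06, 0.0 and 0.0 CPM in p63KO. Control held 508 counts of it and p63KO 1, for a depth-scaled ratio of 413.0 (exact 95% interval 73.8 to 16300). Ugt1a genes share their last exons, so the symbol may not mark 1 gene. Ephx1, the microsomal epoxide hydrolase, fell from 6.27 ± 1.49 to 1.60 ± 0.37 CPM (-1.96, SE 0.28), and Sult2b1, a sulfotransferase of cholesterol and hydroxysteroids, rose from 2.33 ± 0.68 to 11.3 ± 2.85 CPM (2.28, SE 0.27). Of 22 tested genes of sterol synthesis beside Cyp51, 5 rose (22.7%), 1 fell (4.55%) and 16 did not pass (median 0.15). Mvd and Sc5d, which act before and after Cyp51, rose by 0.40 and 0.38 on the log2 scale, and Scap, the sterol-sensing escort protein, fell by 0.29.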

How the data were processed

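RNA-seq counts per gene were used as the authors deposited them, as whole numbers for 3 control and 3 p63KO libraries. Per the labels' protocols, RNA was isolated with a PicoPure kit and libraries were made with TruSeq and read at 100 bases. The submitters' processing notes name bcl2fastq 1.8.4, TopHat2 2.1.0, DESeq2 and the mm9 build; the sources used here give no read counter, annotation or strand handling. Reads of near copies and of overlapping or antisense genes therefore cannot be told apart.

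Genes were filtered with filterByExpr (minimum count 10, total 15), scaled by TMM and tested with the quasi-likelihood test of edgeR 4.0.16 in R 4.3.3, with Benjamini-Hochberg adjustment over all tested genes and a threshold of 0.05. Standard errors were derived from the F statistic. Exon lengths and shared 100-base windows came from GENCODE M21 (GRCm38), and promoters and gene order from RefSeq GRCm38.p6. Depth-scaled ratios have exact 95% intervals that cover counting error only.

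Alternatives were DESeq2 1.42.0, limma 3.58.1 (voom), 2 other scalings, 2 other filters, robust dispersions, a replicate block, stricter thresholds and leaving out each library. Genes given library by library were those that changed by 2-fold or more and whose higher group averaged 5 CPM or more, and the most abundant tested gene of each family. Genes with at least 10 CPM that did not pass were named; others were named after their values were seen. The enzyme genes, the lists and the tests were chosen with earlier results of these data known.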

Additional observations from a re-analysis of the deposited data

How the results depend on the processing

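Of the 20 enzyme genes that changed, 11 kept their call in all 6 fits without 1 library and in 8 other fits: Cbr2, Cbr3, Cyp4f17, Cyp2s1, Gsta3, Gstt3, Aldh2, Aldh4a1, Aldh5a1, Aldh6a1 and Aldh9a1. Without 1 library, between 1 and 8 enzyme genes rose and between 10 and 18 fell. The fewest rose without p63KO replicate 1 (1), then without control replicate 2 or p63KO replicate 3 (2 each). With control replicate 1 left out 3 rose, and with p63KO replicate 2 left out 4. Calls over all genes in either direction were also fewer in these fits, between 22.4% and 26.9%, against 29.6% with all libraries. At an adjusted p under 0.01, 1 enzyme gene rose and 9 fell, and 1353 of all genes rose and 1227 fell. With at least a 2-fold change required, 3 enzyme genes rose and 4 fell, against 928 and 684 of all genes. These stricter thresholds lower counts by construction. Among the 40 genes followed through every setting, the sign of 5 changes that did not pass reversed, and the cause was not tested. Of the other tested enzyme genes, Akr1e1, Aldh1l2, Cbr4, Cyp27b1, Cyp2g1, Gstt2 and Nqo1 also took either sign over the fits without 1 library. Over the fits without 1 library, the log2 fold change lay between -0.94 and 2.27 for Akr1c12, -2.10 and 0.25 for Aldh1b1, -0.02 and 0.13 for Gsta4, -0.40 and 0.60 for Gstm1, and -0.14 and 0.14 for Nqo2, in each case with the other sign without control replicate 3, and at 0.00 for Nqo2 without p63KO replicate 2. With limma-voom it was 0.88 for Akr1c12 and 0.11 for Gstm1. With the replicate number as a block it was 0.48 for Akr1c12 and 0.04 for Gstm1. In that blocked fit 7 enzyme genes rose and 17 fell, and 2397 and 2381 of all genes. Deviations of same-numbered libraries correlated at 0.17, 0.26 and 0.03 across genes. Each p63KO library correlated best with the control of its own number. Control replicate 3, in turn, correlated best with p63KO replicate 1 (0.06). Whether the numbers mark pairs was not established, and the main fit used the group only, with the block as an alternative. Of the 101 enzyme genes below the low-count filter, none had over 60 counts in any library.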
